A study of Mus musculus with 24 samples.

Results

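Endothelial cells of mouse bone marrow, cultured without blood cells, were set against marrow stromal cells also cultured without them. Whether medium and passage matched is not given, so a difference in culture conditions cannot be told apart from one of cell type. The libraries were taken by their titles, which name 3 endothelial and 3 stromal cultures kept alone in the co-culture arm of a study of the arteriolar niche of blood stem cells. These are 6 of the 24 libraries of the series, and all genes of the files were compared. The series holds 8 groups of 3 libraries: both cell types in a first culture, in the co-culture arm without and with hematopoietic stem and progenitor cells (HSPC), and taken from the marrow in vivo. The difference between the cell types alone is the subject here, and the other 18 libraries serve only to show where it differs.

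Both groups alone came from C57BL/6J mice and were labelled as in vitro, one as bone marrow endothelial cells and the other as bone marrow stroma. All 18 in vitro titles, and so both groups compared, carry the name Akt1, a kinase downstream of insulin and growth factor receptors. The labels give neither what was done with Akt1, nor the age or sex of the mice, the passage, the medium, the number of animals or whether a library is a separate culture. If they are not, the p-values below rest on technical spread alone. RNA was taken with Trizol and polyA RNA was sequenced as paired ends after TruSeq preparation. Levels are fragments scaled to transcript length and to all mapped fragments of the library (FPKM), so levels of different genes can be set side by side. Akt1 itself read 1094, 1091 and 1128 FPKM in the 3 endothelial libraries and 649, 638 and 615 in the 3 stromal ones, so the groups did not overlap. Its difference was 0.80 ± 0.05 on the log2(FPKM + 1) scale (SE, adjusted p = 7.58e-09).

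Blood stem cells lie against vessels and perivascular stroma in the marrow. Endothelium lines arterioles and sinusoids, is joined by its own cadherin and claudin junctions, and presents Notch ligands and Kit ligand to the cells beside it. Stromal cells of mesenchymal origin lay down collagen matrix and secrete Cxcl12, Kit ligand, angiopoietin and pleiotrophin. Both cell types are therefore described as niche cells, and many of their signals run from one to the other as ligand and receptor.

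The 6 libraries were alike in scale. Totals ran from 1527846 to 1580592 FPKM, the upper quartile over all genes from 50.9 to 52.3 FPKM, and the genes listed at 0 from 10229 to 10756 per library. Across genes, libraries of endothelium correlated with each other at 0.9975 to 0.9979, those of stroma at 0.9978 to 0.9982, and pairs of the different cell types at 0.8687 to 0.8733 (Pearson r of log2(FPKM + 1)). No 2 libraries held identical values. Depth is unknown, since the files hold no counts and their low values show no read steps. A gene listed at 0 is called that here, with no fold, since a 0 in such a file need not be an absence of transcript.

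The labels fitted their defining markers. The 8 endothelial markers Cdh5, Pecam1, Kdr, Tie1, Tek, Emcn, Erg and Esam were each higher in endothelium, with 6 of them listed at 0 in every stromal library. The 8 stromal markers Pdgfra, Pdgfrb, Col1a1, Col1a2, Col3a1, Dcn, Lum and Prrx1 were each higher in stroma. Of the 5 blood markers, Ptprc, Cd53 and Spi1 were listed at 0 in all 6 libraries. Laptm5 read 2.26 ± 1.02 FPKM (SD, n = 3) in endothelium and was listed at 0 in stroma, and Coro1a stayed under 1 FPKM on average in both. Xist was at or near 0 in all 6 libraries, and Ddx3y, Eif2s3y, Uty and Kdm5d of the Y chromosome were present in all of them.

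In the comparison of all genes, 14017 of 23879 genes reached at least 1 FPKM in at least 3 of the 12 libraries of the fit (alone and with HSPC) and were tested with limma. Of these, 11678 passed a Benjamini-Hochberg adjusted p under 0.05, which is 83.3% of the genes tested. A total of 5892 genes (42%) were higher in endothelium, 5786 (41.3%) were higher in stroma, and 2339 did not pass. Passing is therefore the usual state of a gene here, and sizes say more than calls. The median size of the difference, whatever its sign, was 0.66 on the log2(FPKM + 1) scale. Differences of at least 2-fold were met by 5174 called genes (36.9%), 2395 higher in endothelium (17.1%) and 2779 higher in stroma (19.8%). At 8-fold or more the numbers were 661 and 881, and at 32-fold or more 278 and 351. Genes with all 3 libraries of one type at 100 FPKM or more and all 3 of the other under 1 numbered 101 for endothelium and 114 for stroma. The 3 libraries of one type lay above all 3 of the other in 12031 tested genes (85.8%), so such a separation is also usual here. In these bulk cultures, fewer cells of a type and less RNA per cell cannot be told apart.

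**Figure D1:**
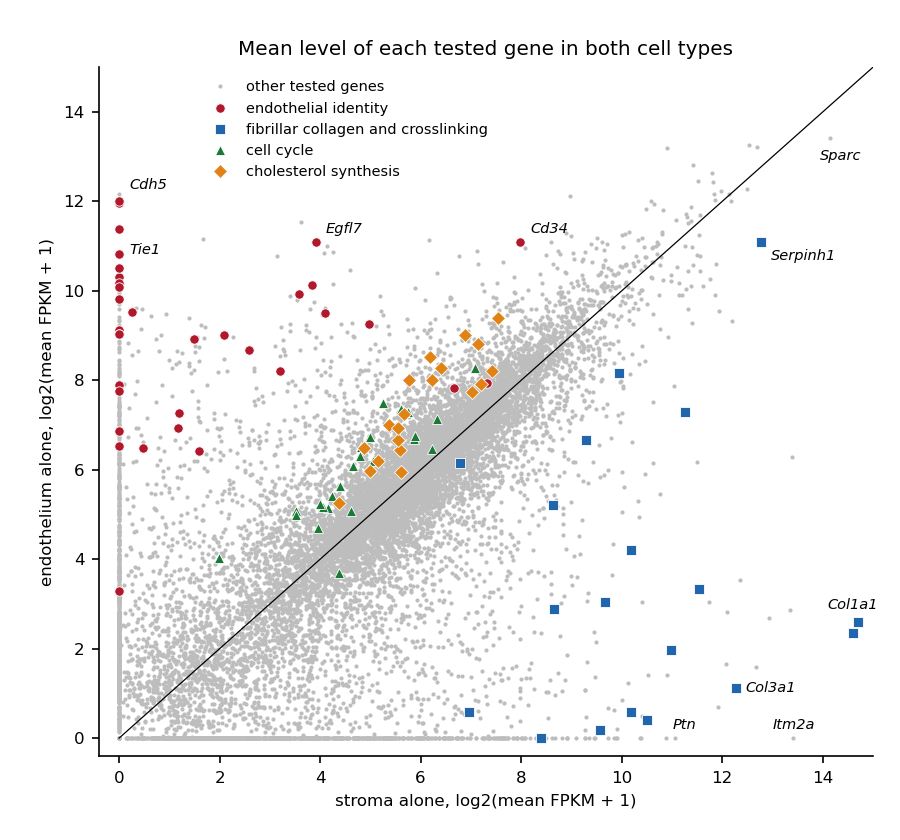
Mean level of each tested gene in stroma alone (horizontal axis) and endothelium alone (vertical axis), both as log2(mean FPKM + 1) over 3 libraries, with equal levels on the line. Endothelial identity genes (red circles) lie above the line, 17 of 34 of them at the left edge where stroma is listed at 0, fibrillar collagen genes (blue squares) lie far to the right, and cholesterol synthesis and cell cycle genes (orange and green) lie just above the line.

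The plot of all genes shows the largest differences along both axes, where one cell type is listed at or near 0. Most other genes lie close to the line of equal level.

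On the endothelial side, Cdh5, the cadherin of endothelial adherens junctions, stood at 3965, 3974 and 4086 FPKM in the 3 endothelial libraries and was listed at 0 in all 3 stromal ones (adjusted p = 8.55e-13). Pecam1, an adhesion molecule of the same cell borders, stood at 4249, 3922 and 4183 FPKM against 0 in every stromal library (adjusted p = 2.52e-15). Neither group overlapped the other for these junction genes. Ctla2a, an inhibitor of cysteine proteases with a close paralog that could share its reads, had the largest difference by the naming rule, at 4613, 4288 and 4774 FPKM against 0. The 15 genes with the largest differences also held the adhesion molecules Icam2, F11r and Podxl, the receptors Kdr, Tie1 and Cd93, the sialomucin Emcn, the nitric oxide synthase Nos3 and the transcription regulators Sox18 and Bcl6b. Each of these was listed at 0 in all 3 stromal libraries, with endothelial means from 832 ± 37.5 FPKM for Podxl to 2658 ± 26.8 for Icam2 (SD, n = 3). Sprr1a, a small proline-rich protein better known from squamous epithelium, stood at 875, 1101 and 1089.6 FPKM in endothelium and at 0 in stroma. Ifi27l2a, an interferon-inducible gene, read 2595, 2121 and 2174 FPKM against 0.890, 4.28 and 1.38, a difference of 9.64 ± 0.38 (log2, SE, adjusted p = 2.84e-10).

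On the stromal side the type I collagen chains led by level. Col1a1 read 28851, 25736 and 24811 FPKM in the 3 stromal libraries and 7.66, 7.0 and 0.480 in the endothelial ones, a difference of -12.46 ± 0.52 (log2, SE, adjusted p = 4.03e-10). The endothelial libraries disagreed on this gene, with the third far under the other 2. Col1a2 read 26040.0, 24594 and 24183 FPKM against 6.03, 6.18 and 0, a difference of -12.72 ± 0.57 (adjusted p = 8.46e-10). Together these collagens were the 2 highest transcripts of stroma. Itm2a, a transmembrane protein of chondrocyte and lymphocyte development, came next to the collagens and Sparc at 10694, 10827 and 11177 FPKM and was listed at 0 in every endothelial library (adjusted p = 8.65e-12). Penk, the precursor of enkephalin peptides, averaged 7778 ± 90.9 FPKM in stroma and 5.45 ± 0.605 in endothelium, a difference of -10.24 ± 0.14. Among the other largest differences were the matrix genes Col3a1, Col6a1, Abi3bp, Ogn, Postn and Dcn, the procollagen processing enhancer Pcolce, the BMP antagonist Chrdl1, the secretory pathway protein Rcn3 and the integrin-like Itgbl1. Stroma averaged between 1322 ± 11.4 FPKM for Chrdl1 and 10469 ± 353 for Postn over these genes.

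The highest transcripts overlapped in part. Sparc, a collagen-binding matrix protein, was the top gene of endothelium at 10962 ± 179 FPKM and the third of stroma at 18019 ± 187. Its difference was -0.72 ± 0.06 (log2, SE, adjusted p = 6.32e-07), but 0.44 after quantile normalization. Endothelium was also rich in Vim, the intermediate filament of mesenchymal and endothelial cells (9791 ± 184 FPKM against 5909 ± 113 in stroma), in the actin-binding peptide Tmsb4x (9382 ± 649 FPKM against 1907 ± 144) and in the lysosomal protease Ctsd (7171 ± 218 FPKM against 2736 ± 31.9). Timp2, an inhibitor of matrix proteases, was high in both at 4618 ± 181 and 4492 ± 151 FPKM and was not called (log2 difference 0.04 ± 0.06, adjusted p = 0.52). The light chain of MHC class I, B2m, did not pass either (4995 ± 249.8 FPKM against 5746 ± 365, adjusted p = 0.058), but did with only the 6 libraries in the fit (adjusted p = 0.0226).

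Endothelial identity genes were higher in endothelium for 34 of 34 tested members, and 33 of them by at least 2-fold. Their median difference was 7.06, against 0.005 over all tested genes. For 17 members every stromal library was listed at 0, and the median over the other 17 was 6.02. Among the receptors, Kdr, the main signalling receptor for VEGF, read 1284, 1299 and 1211 FPKM in endothelium against 0. The angiopoietin receptor Tek read 597, 522 and 557 FPKM against 0, and its partner Tie1 read 1826, 1822 and 1828 against 0. The other VEGF receptors were lower in level, with Flt1 at 122 ± 3.88 FPKM against 1.26 ± 0.252 and the lymphatic and venous receptor Flt4 at 89.3 ± 1.14 against 0.390 ± 0.0964. The TGF-beta family receptors of endothelium, Eng and Acvrl1, were detected in stroma too, at 30.3 ± 1.25 and 16.2 ± 0.495 FPKM, under the endothelial 615 ± 2.43 and 726 ± 26.

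Transcription factors of the list followed the same direction. Erg, an ETS factor that maintains endothelial identity, averaged 406 ± 3.54 FPKM against 4.96 ± 0.367, a difference of 6.09 ± 0.23 (log2, SE, adjusted p = 1.38e-10). Its relative Fli1 averaged 153 ± 4.67 FPKM against 1.27 ± 0.0781, and Sox7 averaged 237 ± 14.9 FPKM in endothelium with stroma listed at 0. Ets1, which many cell types express, had a small difference of 1.17 ± 0.06 at 227 ± 10.5 FPKM against 100.3 ± 2.71. The smallest difference of the list was that of Nrp1, a co-receptor for VEGF and semaphorins, at 0.62 ± 0.05 (245 ± 8.63 FPKM against 159 ± 1.62, adjusted p = 1.36e-07). Cldn5, the claudin of tight endothelial junctions, passed at a low level, with 9.18, 6.52 and 10.4 FPKM in endothelium and 0 in stroma. Cd34, a sialomucin of endothelium and progenitors, was also present in stroma, at 252 ± 25.3 FPKM against 2174 ± 102 in endothelium (difference 3.11 ± 0.07).

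Since these genes moved together and ETS factors were among them, the promoters of the list were searched for 2 core ETS words, CCGGAAG and CAGGAAG, on both strands. The windows run from 250 bases before to 50 bases after the start in the RefSeq promoter table of GRCm38.p6, a later build than the mm9 of the files, and 18 of the 34 genes had an entry. A match was present in 9 of their 23 promoters (39.1%), in 2 of 12 promoters of the fibrillar collagen list (16.7%) and in 6877 of all 32851 (20.9%). The match is a description of letters and not a binding site. Of the 5 genes chosen for display, Cdh5, Icam2, Tie1, Pecam1 and Tek, only 2 had an entry and neither held a match. Shown are therefore the 250 bases before the start of Tie1, as a strong endothelial gene with no match, and of the 3 matched genes with the highest endothelial levels, Egfl7, Cd34 and Emcn, chosen after their values were seen. Capitals mark the matches. Tie1 lies at chr4:118489850-118490099 on the minus strand, Egfl7 at chr2:26580833-26581082, Cd34 at chr1:194938571-194938820 and Emcn at chr3:137340828-137341077, all on the plus strand.
Tie1: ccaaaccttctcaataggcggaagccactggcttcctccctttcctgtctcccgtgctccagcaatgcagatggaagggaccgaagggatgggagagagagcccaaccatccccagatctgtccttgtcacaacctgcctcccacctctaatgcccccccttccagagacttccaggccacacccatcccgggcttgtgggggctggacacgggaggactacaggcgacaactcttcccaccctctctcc
Egfl7: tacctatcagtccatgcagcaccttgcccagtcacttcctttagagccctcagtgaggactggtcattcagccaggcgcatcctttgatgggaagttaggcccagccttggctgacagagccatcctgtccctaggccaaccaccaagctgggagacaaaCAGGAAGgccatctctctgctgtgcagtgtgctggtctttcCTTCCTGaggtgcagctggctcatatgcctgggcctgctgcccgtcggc
Cd34: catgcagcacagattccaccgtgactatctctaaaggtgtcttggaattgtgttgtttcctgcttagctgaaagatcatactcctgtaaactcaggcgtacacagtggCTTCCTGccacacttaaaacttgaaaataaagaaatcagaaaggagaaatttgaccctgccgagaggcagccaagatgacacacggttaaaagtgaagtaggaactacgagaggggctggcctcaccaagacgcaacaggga
Emcn: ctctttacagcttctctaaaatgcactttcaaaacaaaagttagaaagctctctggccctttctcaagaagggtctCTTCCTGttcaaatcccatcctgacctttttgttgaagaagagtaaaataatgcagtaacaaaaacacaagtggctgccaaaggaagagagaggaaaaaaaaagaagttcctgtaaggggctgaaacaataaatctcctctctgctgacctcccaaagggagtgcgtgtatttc

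Egfl7, a secreted vascular matrix factor with 2 matches above, averaged 2183 ± 77.7 FPKM against 14 ± 1.34, and Tie1 with none was listed at 0 in stroma.

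Arterial genes were higher in endothelium for 19 of 20 members, 17 of them by at least 2-fold. Their median was 4.56, or 2.40 over the 12 members not listed at 0 in a group. The arterial connexins Gja5 and Gja4 read 312, 276 and 282 and 172, 143 and 149 FPKM in the 3 endothelial libraries, with 0 in all stromal ones. Sox17, a transcription factor of arterial fate, read 161, 137 and 138 FPKM against 0. All 3 endothelial libraries lay far above stroma for each of these. Efnb2, the arterial ephrin, was shared, with 311 ± 21.4 FPKM against 175 ± 7.90 and a difference of 0.82 ± 0.08. The one member that did not pass was Tmem100, at 10.3 ± 0.165 and 10.2 ± 1.47 FPKM (adjusted p = 0.817).

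Venous and sinusoidal genes were mixed. Of 17 members, 13 were tested, 10 were higher in endothelium and 3 were higher in stroma (42% and 41.3% of all genes). Ephb4, the receptor that marks veins, was the highest of them at 1021 ± 31.9 FPKM against 153 ± 9.60 (difference 2.73 ± 0.06). Stab1, a scavenger receptor of sinusoids, read 365, 308 and 367 FPKM in endothelium and 0 in stroma, and Lyve1 read 61.7, 67.4 and 75.5 against 0. Stab2, the other sinusoidal scavenger receptor, averaged only 0.423 ± 0.195 FPKM in endothelium and 1.13 ± 0.132 in stroma. Higher in stroma was Vcam1, an adhesion molecule for blood cells, with 51.3, 56.9 and 60.9 FPKM in endothelium and 749, 745 and 776 in stroma (difference -3.73 ± 0.16, adjusted p = 6.26e-10). The cytokine receptor subunit Il6st also favoured stroma (182 ± 5.14 FPKM against 1584 ± 59.4). Mrc1, Dnase1l3, Cd36 and Ackr1, listed as Darc, were too low to be tested.

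Genes of coagulation and vessel tone were higher in endothelium for 11 of 15 tested members and in stroma for 4 (42% and 41.3% of all genes). Procr, the endothelial protein C receptor, averaged 2039 ± 125 FPKM against 16.5 ± 1.74 (difference 6.87 ± 0.07), and the plasminogen activator Plau averaged 2989 ± 109.7 FPKM against 11.2 ± 1.67. Thrombomodulin, Thbd, was high in both at 2127 ± 53.9 FPKM against 834 ± 31.5. Tissue factor, F3, which starts coagulation, went the other way at 0.627 ± 0.544 FPKM against 101 ± 9.09 (difference -6.03 ± 0.21), as did the prostacyclin synthase Ptgis, listed at 0 in endothelium and at 6.56 ± 0.673 FPKM in stroma. Caveolar genes, which build the membrane pits of endothelium, were higher for 8 of 9 members, with Cav1 at 4107 ± 214 FPKM against 1537 ± 71 and Ehd4 at 859 ± 6.22 FPKM against 13.7 ± 1.04.

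**Figure D2:**
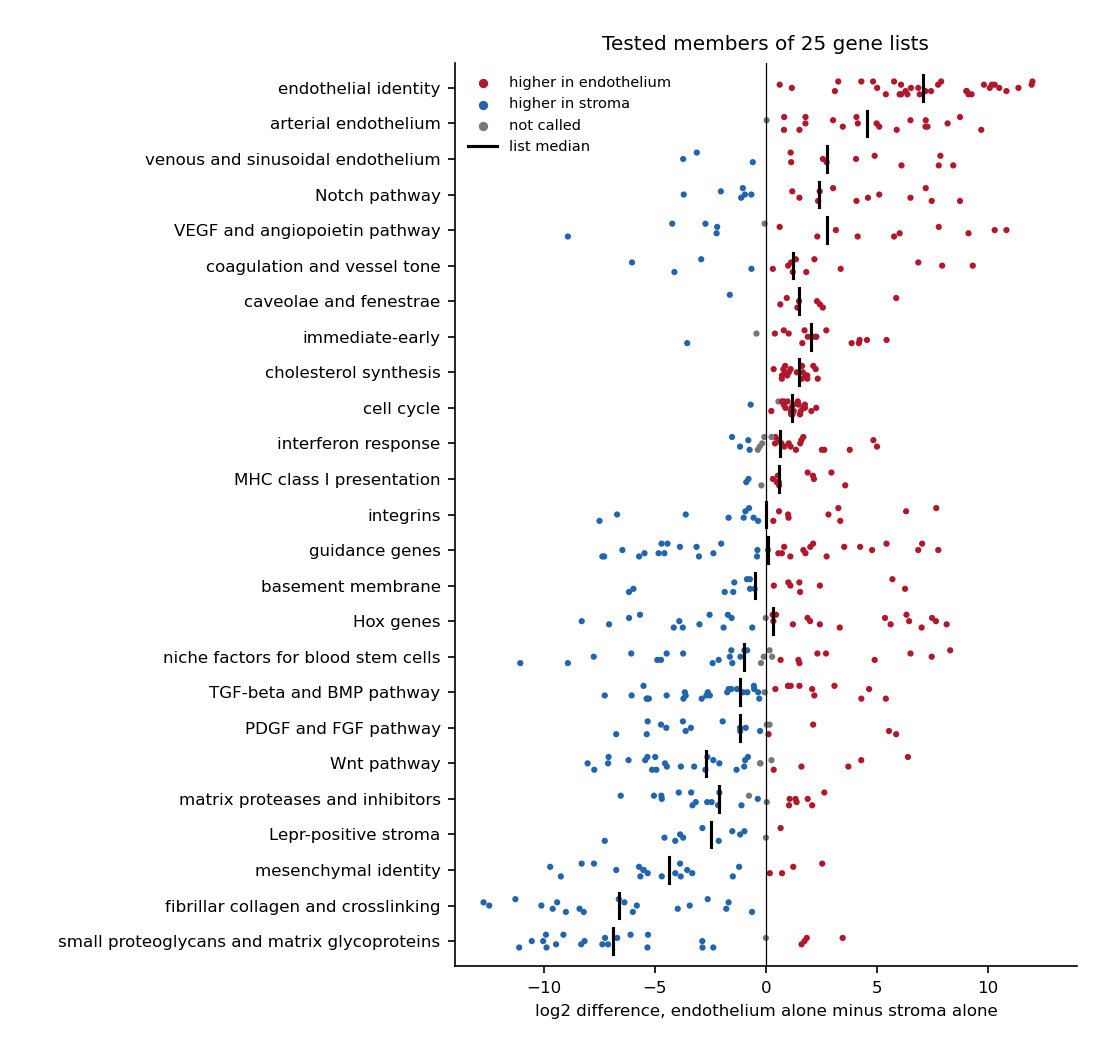
Log2 difference (endothelium alone minus stroma alone, on the FPKM + 1 scale) of every tested member of 25 gene lists. Each point is a gene, coloured by its call, and the bar is the list median, which runs from 7.06 for endothelial identity to -6.90 for small proteoglycans and matrix glycoproteins.

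The plot of gene lists sets the endothelial lists at one end and the matrix lists at the other. Guidance genes, integrins, Hox genes and basement membrane genes have medians near 0 with members far out on both sides, so a median near 0 does not stand for equal levels there.

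Fibrillar collagen and crosslinking genes were higher in stroma for 19 of 19 members, 18 of them by at least 2-fold, with a median of -6.63. Beside the type I chains, Col3a1 averaged 1.19 ± 1.03 FPKM against 4930.0 ± 186 (difference -11.28 ± 0.31) and Col6a1 averaged 0.323 ± 0.287 FPKM against 1441 ± 50.9. The lysyl oxidase Lox, which crosslinks collagen, averaged 9.15 ± 1.45 FPKM against 2975 ± 20.4, and Loxl1 was listed at 0 in endothelium. Enzymes that modify collagen in every secreting cell differed less. The collagen chaperone Serpinh1 was high in both, at 2169 ± 94.4 FPKM in endothelium and 6956 ± 94.1 in stroma (difference -1.68 ± 0.07), and the prolyl hydroxylase subunit P4ha2 had the smallest difference at -0.62 ± 0.05. Col5a2 was the fibrillar chain with the highest endothelial level, 155 ± 5.74 FPKM against 2440.1 ± 6.91.

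Small proteoglycans and matrix glycoproteins were higher in stroma for 19 of 24 members and in endothelium for 4. Their median was -6.90, or -5.33 without the 5 listed at 0 in endothelium. Postn, a matricellular protein of connective tissue, read 6.69, 8.50 and 3.69 FPKM in endothelium and 10119, 10463 and 10825 in stroma (difference -10.55 ± 0.22, adjusted p = 8.55e-13). Biglycan, Bgn, averaged 77.1 ± 6.88 FPKM against 10772 ± 397, and fibronectin, Fn1, was present in both at 645 ± 61.8 FPKM against 4662 ± 182. Lum, Fmod, Aspn and Omd, all small leucine-rich proteoglycans, were listed at 0 in endothelium and averaged 699 ± 3.78, 962 ± 85.3, 943 ± 41.6 and 319 ± 13.8 FPKM in stroma. Prelp, another of that family, was not called, with 210.4 ± 14.9 FPKM in endothelium and 210.5 ± 7.86 in stroma. The 4 genes higher in endothelium included elastin, Eln, with 1523, 1686 and 1463 FPKM against 144, 141 and 137 (difference 3.46 ± 0.21, adjusted p = 1.54e-08), tenascin Tnc at 490.1 ± 43.5 FPKM against 146 ± 3.52, the fibulin Fbln2 at 763 ± 88 FPKM against 249 ± 18.3 and the microfibril protein Mfap5 at 93.9 ± 8.16 FPKM against 25.5 ± 1.99.

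Basement membrane genes split, 8 higher in endothelium and 9 higher in stroma of 17 tested, near the 42% and 41.3% of all genes. The sides differed by chain. Col18a1, the endostatin precursor of vascular basement membrane, averaged 889 ± 58.8 FPKM against 10.6 ± 1.75 (difference 6.27 ± 0.20), and the laminin chain Lama5 averaged 545 ± 3.32 FPKM against 9.57 ± 1.34. The type IV collagen chains Col4a1 and Col4a2 were present in both and about 2-fold higher in endothelium, with differences of 1.10 ± 0.04 and 1.01 ± 0.05. Stroma held more nidogen Nid2, at 11.5 ± 1.77 FPKM against 893 ± 45.4 (difference -6.17 ± 0.11), more perlecan, Hspg2, at 185 ± 5.19 FPKM against 675 ± 57.6, and the laminin chain Lama2, which was listed at 0 in endothelium.

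Matrix proteases and their inhibitors leaned to stroma, 14 of 23 tested, with 7 higher in endothelium (41.3% and 42% of all genes). Membrane-type Mmp14 averaged 235 ± 17.5 FPKM against 2103 ± 47.8 and the gelatinase Mmp2 averaged 232 ± 5.43 FPKM against 1037 ± 44.7. The endothelial side consisted mainly of ADAMTS proteases, with Adamts4 at 323 ± 9.97 FPKM against 51.3 ± 2.64 and Adamts1 at 476 ± 7.77 FPKM against 112 ± 2.35, against stroma-high Adamts2, a procollagen processing enzyme, at 0.520 ± 0.0889 FPKM against 140.2 ± 5.13.

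Integrins, the receptors for this matrix, divided evenly, 9 higher in endothelium and 9 higher in stroma of 18 tested. All genes divided much alike, at 42% and 41.3%. The laminin-binding chains Itgb4, Itga6 and Itga3 favoured endothelium, with Itgb4 at 599.8 ± 16 FPKM against 2.10 ± 1.22 (difference 7.67 ± 0.34). So did Itgb3, at 216 ± 13.7 FPKM against 1.72 ± 0.116. Itgb5, a partner of the same alpha chain, favoured stroma at 1.06 ± 0.156 FPKM against 369.7 ± 13.8 (difference -7.50 ± 0.10), and the collagen receptor Itga11 was listed at 0 in endothelium with 104 ± 8.83 FPKM in stroma. Itgb1, the common beta chain, was high in both at 3598 ± 217 FPKM against 1798 ± 21.3.

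Mesenchymal identity genes were higher in stroma for 18 of 22 tested members. The homeobox factor Prrx1 averaged 0.153 ± 0.266 FPKM against 954 ± 10.5 (difference -9.72 ± 0.13), and Prrx2 and Twist1 were listed at 0 in endothelium, with 314 ± 7.22 and 214 ± 9.50 FPKM in stroma. Cadherin Cdh11 averaged 0.543 ± 0.189 FPKM against 925 ± 5.98. Pdgfrb and Pdgfra, the receptors by which stroma is often recognised, averaged 272 ± 15.1 and 188 ± 6.98 FPKM in stroma and 1.55 ± 0.228 and 3.72 ± 0.235 in endothelium. Thy1, another surface marker of stroma, was close to 0 in both, with 1.08, 1.04 and 1.90 FPKM in the stromal libraries. The 4 members higher in endothelium were Vim, Nes, Ebf2 and Foxc2, the last at 8.96 ± 0.837 FPKM against 7.80 ± 0.255 (adjusted p = 0.0597 with trimmed-mean scaling).

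Genes of the Lepr-positive stromal cell of the marrow were present only in part. Lepr itself and Adipoq were below the level for testing, and of 12 members tested 10 were higher in stroma. Cxcl12, the chemokine that holds blood stem cells in the marrow, was the highest of them. Osteoblast genes were higher in stroma for 11 of 12 tested, led by Col1a1 and Spp1 (43.1 ± 3.06 FPKM against 1745 ± 59.9). The osteoblast regulator Runx2 averaged 49.1 ± 1.32 FPKM in stroma, while Sp7, Ibsp, Bglap and Bglap2 of mature bone cells were too low to be tested. Cartilage genes were higher in stroma for 8 of 10 tested, among them Sox9 at 0.847 ± 0.170 FPKM against 91.6 ± 4.58 and Hapln1 at 181 ± 3.61 FPKM with endothelium listed at 0. Among smooth muscle and pericyte genes, 9 of 12 tested were higher in stroma, with Acta2 at 0.380 ± 0.0458 FPKM against 622 ± 73.6 (difference -8.81 ± 0.21), while Myh11, Cnn1, Des and Rgs5 were too low to be tested. Of the adipocyte list, 6 of 9 tested were higher in stroma and 3 in endothelium, beside 41.3% and 42% of all genes. The endothelial ones included Pparg, a regulator of lipid genes, at 39.6 ± 3.89 FPKM against 6.84 ± 0.761 and the fatty acid carrier Fabp4 at 97.1 ± 9.69 FPKM against 4.99 ± 1.55.

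Niche factors for blood stem cells came from both cell types. Of 29 tested, 9 were higher in endothelium, 16 in stroma and 4 did not pass. Among all genes, 42% were higher in endothelium and 41.3% in stroma, so members on both sides are usual here. Cxcl12 read 558, 658 and 640.2 FPKM in endothelium and 2685, 2698 and 2706 in stroma, so both expressed it and stroma lay above in every library (difference -2.13 ± 0.24, adjusted p = 4.32e-06). Kitl, the ligand of Kit on stem cells, read 555, 511 and 535 FPKM in endothelium and 334, 339.8 and 337 in stroma, and here endothelium lay above in every library (difference 0.66 ± 0.08, adjusted p = 6.91e-06). Pleiotrophin, Ptn, a heparin-binding growth factor for stem cells, read 2075, 2094 and 2250.5 FPKM in stroma and 0 in every endothelial library (adjusted p = 4.16e-14). Angpt1, which keeps Tek active, read 475, 491 and 484 FPKM in stroma and 0 in endothelium (adjusted p = 6.92e-13). Further stromal factors were Igf1 at 69.7 ± 3.94 FPKM against 1565 ± 30.0, the colony-stimulating factor Csf1 at 68.5 ± 7.10 FPKM against 364 ± 2.23 and the angiopoietin-like genes Angptl2 and Angptl4, at 446 ± 10.1 and 199 ± 3.93 FPKM. On the endothelial side, Igf2 read 430.0, 387 and 391 FPKM against 0, 0.400 and 0.490 (difference 8.30 ± 0.22, adjusted p = 5.64e-12). The Notch ligand Dll1 read 572, 617 and 555 FPKM against 2.13, 2.37 and 2.36 (difference 7.47 ± 0.08). E-selectin, Sele, was listed at 0 in stroma and averaged 29 ± 4.12 FPKM in endothelium. Thrombopoietin, Thpo, and Flt3l were low in both, at 16.5 ± 9.50 and 14.8 ± 2.14 FPKM in endothelium, and were not called.

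**Figure D3:**
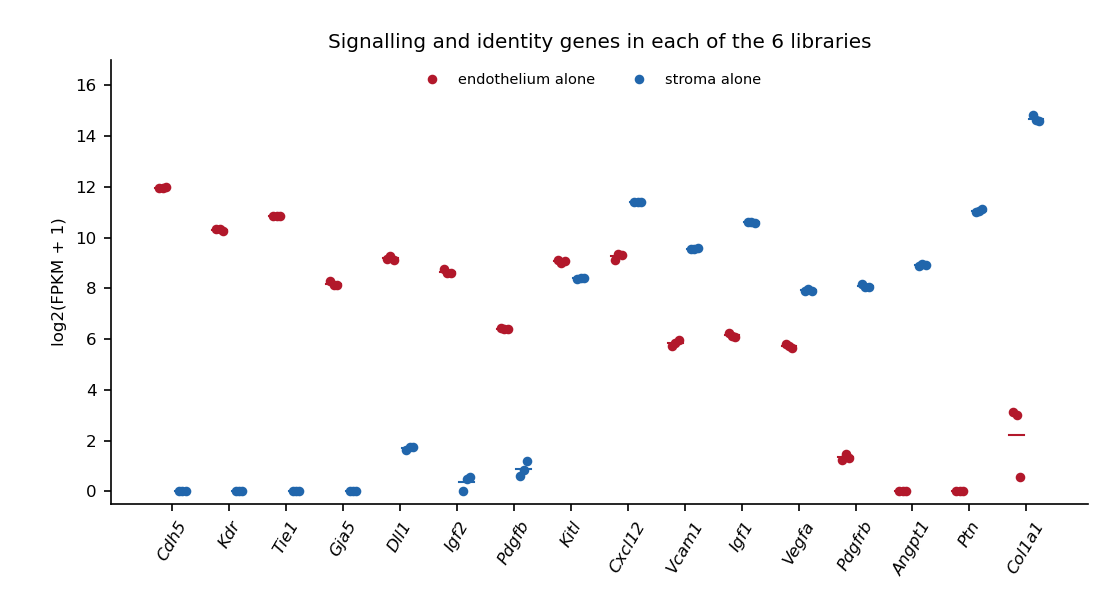
Level of 16 identity and signalling genes in each of the 3 endothelial (red) and 3 stromal (blue) libraries, as log2(FPKM + 1), with a short bar at the mean of 3. Kitl and Cxcl12 are high in both cell types and cross in order, whereas Cdh5, Kdr, Tie1 and Gja5 sit at 0 in stroma and Angpt1 and Ptn sit at 0 in endothelium.

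The plot of single libraries shows how tight the groups were. Only Col1a1 in endothelium and Igf2 and Pdgfb in stroma spread visibly, all at low levels.

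The chemokine list leaves out Cxcl12 and holds receptors too. It had 10 of 17 tested members higher in stroma and 3 in endothelium (41.3% and 42% of all genes). Ccl2, which draws monocytes, averaged 1984 ± 237 FPKM against 269 ± 38.6 (difference 2.88 ± 0.29), and the decoy receptor Ackr3 averaged 557 ± 11.9 FPKM against 52.6 ± 1.82. Cxcl5, a neutrophil chemokine, was listed at 0 in endothelium and averaged 356 ± 22.7 FPKM in stroma. Cxcr4, the receptor of Cxcl12, averaged 50.5 ± 5.29 FPKM against 13.9 ± 0.485.

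Notch genes were higher in endothelium for 12 of 18 tested and in stroma for 6 (42% and 41.3% of all genes). Among ligands, Dll1, Dll4 and Jag2 were at or near 0 in stroma, with 90.3 ± 2.96 FPKM for Dll4 in endothelium, while Jag1 was shared at 178 ± 5.19 FPKM against 61.7 ± 0.182 (difference 1.51 ± 0.04). Receptors divided by type, with Notch1 at 246 ± 9.46 FPKM against 9.21 ± 0.811 and Notch4 at 166 ± 6.10 FPKM against 0.143 ± 0.127, both higher in endothelium, and Notch2 at 9.49 ± 0.352 FPKM against 136 ± 6.11, higher in stroma (difference -3.70 ± 0.05, adjusted p = 3.53e-14). Targets followed in part. The feedback gene Nrarp read 399, 429 and 456 FPKM in endothelium and 0 in stroma, the repressors Hey1 and Hey2 averaged 20.3 ± 2.0 and 24.4 ± 2.38 FPKM against 1.61 ± 0.163 and 0.557 ± 0.483, and Hes1 was present in both at 214 ± 22 FPKM against 93 ± 3.94.

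Ligand and receptor pairs took every arrangement, where 42% of all genes were higher in endothelium and 41.3% in stroma. Of 30 pairs, 6 had the ligand higher in stroma and the receptor higher in endothelium, 5 had the reverse, in 7 both were higher in endothelium and in 4 both were higher in stroma. In the other 8 at least 1 gene was not called or not tested. Vegfa read 55.6, 52.2 and 48.7 FPKM in endothelium and 236, 252 and 238 in stroma (difference -2.19 ± 0.08, adjusted p = 8.43e-11), opposite to Kdr. Angpt1 and Tek were the clearest such pair, each listed at 0 in the cell type where the other stood high. In the reverse direction, the endothelial growth factor Pdgfb read 86.1, 83.4 and 83.2 FPKM against 0.500, 0.780 and 1.28 (difference 5.54 ± 0.20), and its receptor Pdgfrb read 1.35, 1.80 and 1.51 against 289, 263 and 263 (difference -6.74 ± 0.07). Both groups were apart in every library for both genes. Apelin, Apln, averaged 806 ± 75.5 FPKM against 89.6 ± 2.62 with its receptor Aplnr at 220.3 ± 19 FPKM in endothelium and 0 in stroma, so both lay in endothelium. Igf1 and its receptor Igf1r both favoured stroma, the receptor at 8.59 ± 0.184 FPKM against 37.9 ± 1.17. Gas6 was not called (543 ± 15.6 FPKM against 526 ± 15), and its receptor Axl was higher in stroma at 17.7 ± 2.83 FPKM against 240.4 ± 3.28.

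Growth factor families differed in direction, where 42% of all genes were higher in endothelium and 41.3% in stroma. VEGF and angiopoietin genes were higher in endothelium for 10 of 16 tested and in stroma for 5. PDGF and FGF genes were higher in stroma for 13 of 19 tested, with Fgf7 at 1.60 ± 0.182 FPKM against 107 ± 9.04, Fgfr2 at 1.92 ± 0.396 FPKM against 64.2 ± 2.37 and Fgf2 and Fgf10 listed at 0 in endothelium. Dusp6, a phosphatase induced by growth factor signalling to ERK, was far higher in endothelium, at 614 ± 23.7 FPKM against 9.53 ± 0.211 (difference 5.87 ± 0.09, adjusted p = 6e-14), while the feedback inhibitors Spry1 and Spry2 were higher in stroma. TGF-beta and BMP genes were higher in stroma for 24 of 36 tested and in endothelium for 11. The ligands divided by isoform, with Tgfb1 at 352 ± 11.5 FPKM against 40.5 ± 0.915 and Tgfb2 and Tgfb3 at 11.4 ± 1.87 FPKM against 508 ± 23.6 and 11.9 ± 2.88 FPKM against 281 ± 2.75. The BMP antagonist Grem1 was listed at 0 in endothelium and averaged 152 ± 7.45 FPKM in stroma, and the BMP receptor Bmpr1a averaged 4.11 ± 0.352 FPKM against 336 ± 5.55. Of the Id genes, which BMP signals induce, Id3 was higher in stroma (57.2 ± 4.16 FPKM against 431 ± 16) and Id1, Id2 and Id4 were higher in endothelium, Id1 by 0.43 ± 0.12.

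Wnt genes were higher in stroma for 23 of 30 tested and in endothelium for 5 (41.3% and 42% of all genes), with a median of -2.68. The Wnt enhancer Rspo2 was listed at 0 in endothelium at 261 ± 9.93 FPKM in stroma, and the secreted antagonists Sfrp2 and Frzb averaged 0.947 ± 0.354 FPKM against 408 ± 5.38 and 0.443 ± 0.389 FPKM against 101 ± 6.09. Wnt5a and Wnt5b averaged 219 ± 12.6 and 228 ± 12.9 FPKM in stroma. The endothelial exceptions included Wnt9b, at 83.3 ± 5.89 FPKM with stroma listed at 0, the receptors Fzd4 (350.1 ± 10.7 FPKM against 25.8 ± 1.08) and Fzd6 (497 ± 24.5 FPKM against 24.4 ± 0.890), and the co-receptor Lrp5. Axin2, a general target of Wnt signalling through beta-catenin, was low in both, at 2.13 ± 0.193 FPKM against 6.82 ± 0.217. Insulin-like growth factor genes were higher in stroma for 9 of 14 tested and in endothelium for 4. The stromal ones included the binding proteins Igfbp4 (749 ± 25.4 FPKM against 3927 ± 180.3), Igfbp6 and Igfbp7, of which Igfbp6 and Igfbp7 were listed at 0 in endothelium.

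Hox genes, which record position along the body axis and lie in 4 clusters, divided by cluster. All 8 HoxB genes of the list were listed at 0 in every stromal library and ran from 40.2 ± 0.496 FPKM for Hoxb4 to 281 ± 6.74 for Hoxb7 in endothelium. All 9 HoxC genes were listed at 0 in every endothelial library, and the 6 of them tested were higher in stroma, with Hoxc10 at 45.3, 48.6 and 56.6 FPKM. The 5 tested HoxD genes were higher in endothelium, led by Hoxd8 at 291 ± 11 FPKM against 78.5 ± 2.80. The HoxA cluster divided within itself, 3 higher in endothelium, 7 in stroma and 1 not called. Its last genes were the stromal ones: Hoxa10 read 482, 487 and 471 FPKM against 2.88, 2.65 and 2.28 in endothelium (difference -7.06 ± 0.11, adjusted p = 7.91e-14), and Hoxa11 and Hoxa13 were listed at 0 in endothelium with 313 ± 1.27 and 70.8 ± 2.34 FPKM in stroma. In the middle of the cluster, Hoxa5, Hoxa6 and Hoxa7 differed little, with Hoxa6 at 11.9 ± 2.39 and 12 ± 2.58 FPKM.

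**Figure D4:**
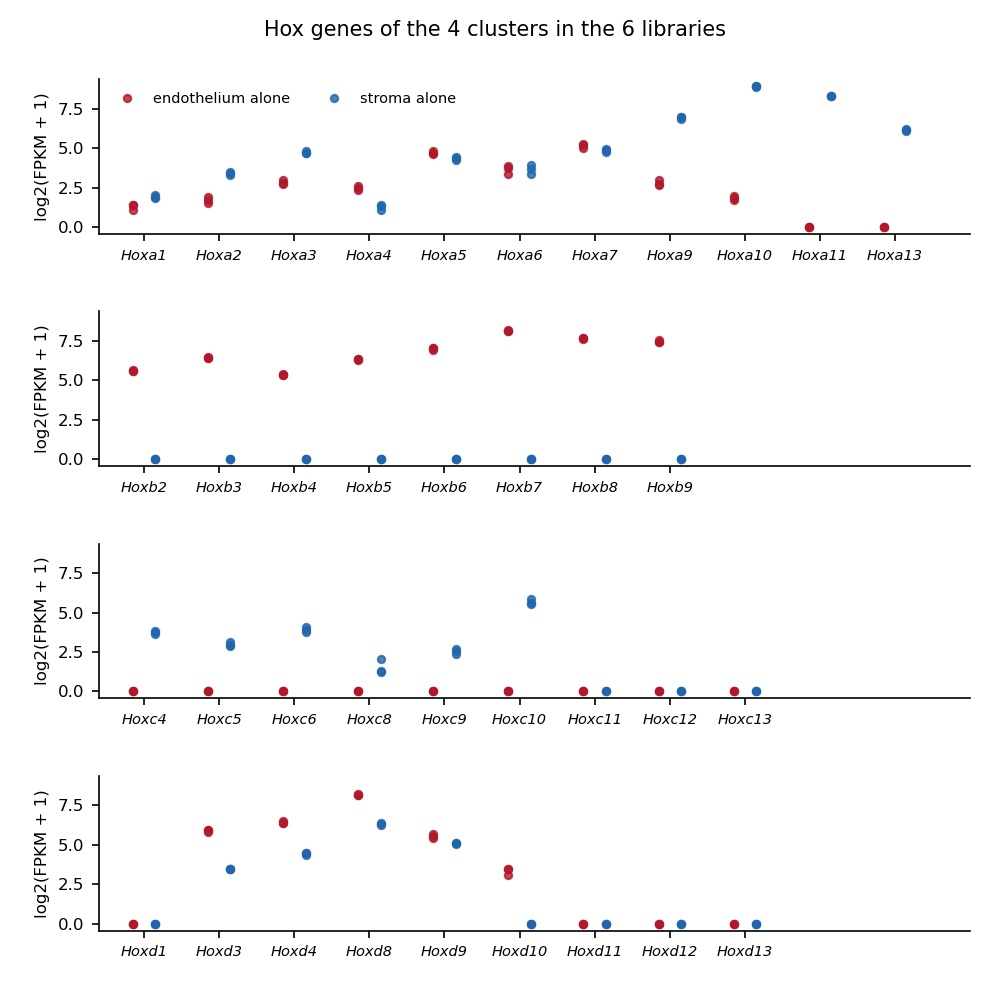
Level of 37 Hox genes in the 3 endothelial (red) and 3 stromal (blue) libraries, as log2(FPKM + 1), with 1 panel for each cluster and genes in number order. HoxB is present in endothelium and at 0 in stroma, HoxC is at 0 in endothelium, and stroma leads at the end of HoxA.

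The plot of Hox genes shows that the 3 libraries of a cell type lay on top of each other in nearly all of these genes. The division thus lay between the groups and not between single libraries. Whether it belongs to the cell type or to the cultures taken was not tested. Against the first culture, 11 of 32 tested members stood relatively higher in endothelium alone and 8 in stroma alone (12% and 15.5% of all genes). Against the cells in vivo these were 18 and 7 of 31 (35.2% and 40.2%), and against the cultures with HSPC 0 and 19 of 30 (21.1% and 36%).

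Guidance genes were even, 16 higher in each cell type and 1 not called of 33 tested. Such a split is near that of all genes (42% higher in endothelium, 41.3% in stroma). Endothelium held Ephb1 (217 ± 1.70 FPKM, stroma listed at 0), Sema3g (238 ± 38.9 FPKM against 0.803 ± 0.0757), the vascular Slit receptor Robo4 (115 ± 3.59 FPKM, stroma at 0) and the semaphorin receptor Plxnd1 (708 ± 29.6 FPKM against 15.4 ± 0.348). Stroma held Sema3c (1.74 ± 0.254 FPKM against 424 ± 2.10), Epha3 (164 ± 3.77 FPKM, endothelium at 0), Robo1 and Robo2 (64.9 ± 1.82 and 29.2 ± 2.40 FPKM) and more of the ligand Slit2 (28 ± 3.27 FPKM against 116 ± 0.902). Relatives in one receptor family thus sat in different cell types, as for the Robo genes.

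Cell cycle genes were higher in endothelium for 23 of 25 members, 17 of them by at least 2-fold, with a median of 1.20. The proliferation marker Mki67 read 61, 67.8 and 72.3 FPKM in endothelium and 22.5, 26.7 and 23.1 in stroma (difference 1.44 ± 0.16, adjusted p = 3.68e-06). Birc5, a survivin of dividing cells, had the largest difference at 180.2 ± 15.9 FPKM against 36.9 ± 6.75. Against the list, Ccne1 was higher in stroma (12 ± 1.57 FPKM against 19.7 ± 0.314), and Ccne2 did not pass. Both cell types thus held transcripts of dividing cells. Inhibitors of the cycle split, with Cdkn1a and Cdkn2a higher in endothelium (814 ± 40.4 FPKM against 175 ± 1.06 and 127 ± 6.11 FPKM against 29.2 ± 3.08) and Cdkn2b and Cdkn1b higher in stroma (23 ± 1.65 FPKM against 284 ± 2.93 and 87.7 ± 2.64 FPKM against 199.9 ± 5.82).

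Cholesterol synthesis genes were higher in endothelium for 20 of 20 tested, 13 of them by at least 2-fold, with a median of 1.49. Sqle, the epoxidase that commits squalene to sterols, read 432, 450.4 and 453 FPKM in endothelium and 123, 148 and 149.6 in stroma (difference 1.66 ± 0.11, adjusted p = 4.99e-08). The isomerase Idi1 differed by 2.24 ± 0.13, at 257 ± 17.8 FPKM against 53.8 ± 8.27, and Mvk had the smallest difference of the list, 0.35 ± 0.10. Genes of hypoxia and glycolysis were higher in endothelium for 15 of 24, mostly by little, and in stroma for 8 (42% and 41.3% of all genes). Their median was 0.41. The lactate dehydrogenase Ldha averaged 1521 ± 58.6 FPKM against 1069 ± 45.2 and the oxygen sensor Egln3 averaged 543 ± 12.4 FPKM against 12.7 ± 1.46, while the hypoxia-induced carbonic anhydrase Car9 went the other way at 4.21 ± 0.400 FPKM against 228 ± 5.22 (difference -5.46 ± 0.08). Gapdh and Eno1 have many pseudogene copies that can share their reads, so their levels are uncertain.

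Immediate-early genes, which cells switch on within minutes of a stimulus, were higher in endothelium for 14 of 16 members, 12 of them by at least 2-fold, with a median of 2.05. Fos read 1009.7, 1152 and 1060.1 FPKM in endothelium and 59, 54.5 and 60.3 in stroma (difference 4.19 ± 0.13, adjusted p = 3.25e-11). Fosb read 392, 473 and 383 FPKM against 7.89, 8.61 and 9.32 (difference 5.44 ± 0.18). All 3 endothelial libraries lay above all stromal ones for both. Klf2, which blood flow induces in endothelium, averaged 708 ± 14 FPKM against 37 ± 1.24, and Egr1 averaged 856 ± 44 FPKM against 231 ± 4.74. The exception was Nr4a2, higher in stroma at 15.3 ± 1.88 FPKM against 189 ± 4.32 (difference -3.55 ± 0.09).

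Interferon response genes were higher in endothelium for 16 of 26 tested and in stroma for 4 (42% and 41.3% of all genes). Rsad2 averaged 43.4 ± 3.69 FPKM against 0.543 ± 0.941 and Bst2 averaged 1898 ± 42.5 FPKM against 138 ± 18.5 (difference 3.78 ± 0.11, adjusted p = 2e-11), whereas Ifit2 was higher in stroma at 18.9 ± 3.03 FPKM against 55.8 ± 2.69, and Irf1, Ifit1 and Ifit3 were not called. The list thus did not move as one.

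Among the markers of other cell types, most were at or near 0 and a few were well expressed. Of 17 pan-hematopoietic genes, 11 were listed at 0 in all 6 libraries. They passed the filter through the libraries with HSPC. The summed level of the list ran from 104 to 106 FPKM in endothelium and from 65.4 to 67.7 in stroma. Most of the endothelial sum was Lcp1, an actin bundler, at 72.9, 67.8 and 69 FPKM with 0 in stroma. Among monocyte genes, Cd68, which lysosomes of other cells also carry, averaged 191 ± 10.7 FPKM against 5.75 ± 1.43, while Lyz1, Mpeg1 and Fcgr3 were listed at 0 in both. Ltf alone stood out among granulocyte genes, at 51.7 ± 3.37 FPKM in endothelium and 0 in stroma, with S100a8, S100a9, Mpo and Elane at 0 in both. The monocyte list summed to 193 to 211 FPKM in endothelium and 15.8 to 19.6 in stroma. The erythroid list summed to 179.7 to 199.6 and 159 to 160.2 FPKM, nearly all from the transferrin receptor Tfrc of dividing cells, with the hemoglobin genes and Alas2 at 0. Of 7 tested megakaryocyte genes, 4 were higher in endothelium and 1 in stroma, beside 42% and 41.3% of all genes. Gp1bb averaged 71.3 ± 4.11 FPKM in endothelium against 17.2 ± 1.09 in stroma, and Pf4 averaged 6.82 ± 0.704 FPKM against 0. The lymphoid gene Cd3e and the epithelial genes Epcam and Cdh1 were too low to be tested. The part of other cells in the differences was not tested.

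The difference between the cell types was then set against the same difference in the other 3 settings, none of which shares a library with the groups alone. With HSPC, 5090 of the 5892 genes higher in endothelium alone were again called higher there (86.4%, which is 78% of those higher with HSPC). In the first culture the number was 2362 (40.4% of 5848 tested in both, 74.9% of the 3153 higher there), and 266 were called in the opposite direction. In vivo it was 3372 (57.6% of 5852 and 58.5% of 5761), and 1230 were called opposite. For genes higher in stroma alone, the same direction was called for 4637 with HSPC (80.1%), 2265 in the first culture (39.4%) and 2949 in vivo (51.2%), with 1508 opposite in vivo. Of all genes tested, 43.4% were called in the first culture, 85.1% with HSPC and 77.5% in vivo. In the first culture 3 of the 6 libraries carried Xist, while those alone did not.

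Tests of the difference between settings passed for 7996 genes against the cultures with HSPC (57%), 3867 of 14071 against the first culture (27.5%) and 11283 of 14973 in vivo (75.4%). Against the first culture the 3867 became 2462 to 2541 when endothelium alone replicate 2 or 3, or any 1 stromal library alone, was left out, and 5779 without stroma replicate 1 of the first culture. In a separate fit with a spread shared by all 24 libraries, 2276 passed against the cultures with HSPC and 6441 against the first culture. The cultures with HSPC also held blood transcripts. Without Lcp1 and Runx1, the other 15 pan-hematopoietic genes summed to 228 to 305 FPKM in endothelium and 46.5 to 66.4 in stroma there, and Ptprc averaged 1.54 ± 0.464 and 0.387 ± 0.0737. Alone the same 15 genes summed to 9.89 to 13.3 FPKM in endothelium and 0.87 to 2.27 in stroma. The part of blood RNA in these counts was not tested. The in vivo titles also lack the name Akt1, which cannot be told apart from the setting.

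Among all genes tested, 46.6% were higher in endothelium with HSPC, 22.8% in the first culture and 40.8% in vivo, and 38.6%, 20.6% and 36.7% were higher in stroma. Endothelial identity genes kept their direction for 34 of 34 members in each setting, with medians of 7.05 with HSPC, 6.73 in the first culture and 7.67 in vivo. Fibrillar collagen genes were higher in stroma for 19 of 19 with HSPC, 15 of 19 in the first culture and 17 of 19 in vivo. The levels behind these differences were less alike. Col1a1 averaged 26466 ± 2117 FPKM in stroma alone, 29586 ± 2849 with HSPC, 1907 ± 569 in the first culture and 35922 ± 6934 in vivo. Lum was listed at 0 in the first stromal culture and averaged 699 ± 3.78 FPKM alone and 1053 ± 132 in vivo.

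**Figure D5:**
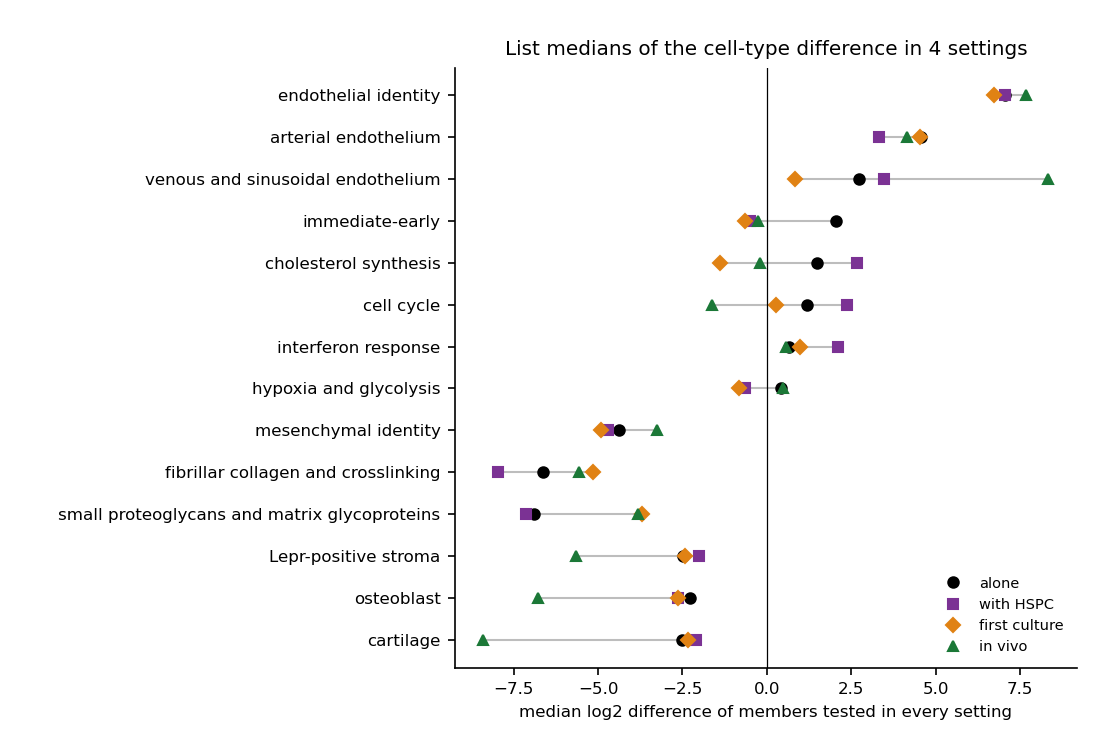
Median log2 difference (endothelium minus stroma) over the members of 14 gene lists tested in all 4 settings: alone (black circles), with HSPC (purple squares), first culture (orange diamonds) and in vivo (green triangles). Identity and matrix lists stay on their side of 0, while cholesterol synthesis, cell cycle, immediate-early and hypoxia lists change sides.

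The plot of list medians shows which lists held in all settings and which did not. Cholesterol synthesis genes were higher in endothelium for 20 of 20 alone and 20 of 20 with HSPC, but higher in stroma for 18 of 21 in the first culture and 11 of 20 in vivo. The difference from alone passed for 20 members against the first culture and 19 in vivo, all toward endothelium alone, a direction that 12% and 35.2% of all genes took. Sqle averaged 86.4 ± 36.3 FPKM in endothelium and 247 ± 68.9 in stroma of the first culture, a change of the difference of 3.21 ± 0.38 (log2, SE, adjusted p = 0.000289). With HSPC the lead of endothelium was larger, and the difference from alone passed for all 20 in that direction, which 36% of all genes took (median with HSPC 2.67).

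Cell cycle genes were higher in endothelium for 23 of 25 alone and 23 with HSPC, and higher in stroma in vivo for 23 of 25. With limma the first culture had 0 cell cycle calls of 25 and 1 at an unadjusted p under 0.05, and its median difference was 0.26. The difference from alone passed for 22 of 25 toward a larger lead of endothelium with HSPC (36% of all genes, list median there 2.38). It passed for 8 toward a smaller lead in the first culture (12%) and for 24 toward endothelium alone in vivo (35.2%). Mki67 averaged 16.6 ± 4.60 FPKM in endothelium and 82.4 ± 8.65 in stroma in vivo.

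By the list median, immediate-early genes were higher in endothelium only in the cultures alone. The median was 2.05 alone, -0.49 with HSPC, -0.66 in the first culture and -0.27 in vivo. The difference from the cultures with HSPC passed for 15 of 16 members toward endothelium alone and for 1 the other way (21.1% and 36% of all genes). Against the first culture it passed for 11 of 16 toward endothelium alone (12%). In vivo it passed for 13 toward endothelium alone and for 2 the other way (35.2% and 40.2%). Fos averaged 125 ± 26.4 FPKM in endothelium and 755 ± 71.5 in stroma with HSPC, the reverse of the order alone, a change of the difference of 6.80 ± 0.19 (log2, SE, adjusted p = 1.83e-09). In vivo both cell types held far more, 7442 ± 2589 and 9142 ± 1333 FPKM. Levels of Fos thus differed more between settings than between the cell types.

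Sinusoidal and bone genes differed between the cultures and the marrow. Over the 13 venous and sinusoidal genes tested in every setting, the median was 8.3391 in vivo against 2.7349 alone. The difference passed for 11 of them toward the marrow and for 1 the other way (40.2% and 35.2% of all genes). Stab2 averaged 2017 ± 178 FPKM in endothelium in vivo. Over the 12 osteoblast and 9 cartilage genes tested in every setting, the medians were -6.7812 and -8.3971 in vivo, against -2.271 and -2.4994 alone. The lead of stroma was larger in vivo for 10 of the 12 and 8 of the 9, and smaller for 2 osteoblast genes. In contrast, Ptn averaged 2139.8 ± 96.4 FPKM in stroma alone and only 5.35 ± 1.46 in vivo, and Postn 10469 ± 353 alone and 211 ± 46.4 in vivo.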

How the data were processed

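The files hold one FPKM value to 2 decimals for each gene symbol and library. The authors made these FPKM values with TopHat and Cufflinks on the mouse build mm9, per the submitters' processing notes. Tool versions are not given in the sources used here. The authors' deposited totals are higher than plain FPKM usually sums to, so a further scaling is possible but not stated. Depth, counts and isoforms were not used here, and the spread between 3 libraries is the only measure of error.

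Groups came from the titles. Values were taken as log2(FPKM + 1) and fitted with limma 3.58.1 in R 4.3.3 (cell means, eBayes with a trend), with the 12 libraries alone and with HSPC in the main fit. A gene was tested where 3 or more libraries of a fit reached 1 FPKM, and it was called at an adjusted p under 0.05 (Benjamini-Hochberg, over every tested gene). The differences from the first culture and in vivo came from 2 further fits of 12 libraries. Differences are on the log2(FPKM + 1) scale, which understates low genes.

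Members, tests and the 45 gene lists (890 entries, 888 found, Hmgcs1 and Hbb-b2 missing, 66 genes in more than 1 list) were chosen with earlier results of these data known. The list counts are descriptions without a set test. Named by rule were the 15 largest called differences each way with groups that do not overlap and a mean of at least 20 FPKM, the 10 highest levels of each type, up to 6 called members of each list each way, members that were not called or went against a list, ligand and receptor pairs, and the 6 largest called differences between settings each way. Clone, microRNA, small nucleolar and histone genes were left out of the largest. A few list members outside this rule were named to describe their list, after their values were seen, and so were the housekeeping transcripts with pseudogene copies.

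The alternatives changed the pseudocount (0.1), the filter (none, or 5 FPKM), the scaling (trimmed means with trims of 0.3 and 0.05, or quantile normalization), the libraries in the fit (all 8 groups, or the 6 compared), the weights (by group), the block (replicate number) and the demand on size (2-fold or more). Single libraries were also left out. The fit was also run on simulated data with independent normal noise and 200 changed genes. In the real comparison 83.3% of genes were called, so that run does not measure the error of these calls. Plots were made in Python 3.11.15 with matplotlib 3.10.9.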

Additional observations from a re-analysis of the deposited data

Results flagged for a closer look

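Each result here is a difference between settings in the lead of one cell type over the other, tested with limma as the difference alone minus the difference in another setting on the log2(FPKM + 1) scale, where a group listed at 0 enters at 0. A positive value means that endothelium stood relatively higher alone. The test passed for 7996 genes against the cultures with HSPC, 3867 against the first culture and 11283 in vivo. The single genes are the 6 largest each way, and the reason for their difference was not tested.

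Against the cultures with HSPC, the transcription factors Fosb (8.79) and Fos (6.80) reversed their order. Fosb averaged 416 ± 49.5 FPKM in endothelium and 8.61 ± 0.715 in stroma alone, and 22.5 ± 6.80 and 234 ± 31.3 with HSPC. H19, an imprinted noncoding RNA (7.47), averaged 2.38 ± 0.105 FPKM in stroma alone and 309 ± 87.3 with HSPC. Tgfbi (5.53) was nearly even alone, and with HSPC averaged 5.93 ± 1.37 FPKM in endothelium and 402 ± 36.3 in stroma. The kallikrein Klk1 (4.95) averaged 97.2 ± 23.8 FPKM in endothelium alone and 2.22 ± 0.992 with HSPC, and Ndufa4l2 (4.92) averaged 69.9 ± 4.17 FPKM in stroma alone and 2141 ± 123 with HSPC. In the other direction were the natriuretic peptide Nppc (-4.40), Sprr2b (-4.12), the chemokine Ccl7 (-3.99), Chst2 (-3.97), Mt1 (-3.90) and Psg22 (-3.87). Ccl7 averaged 42.4 ± 6.83 FPKM in endothelium alone and 395 ± 14.4 with HSPC. Sprr2b and Psg22 have close paralogs that could share their reads.

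Against the first culture, Rem1 (9.25), Col15a1 (9.23), Pde2a (9.19), Cldn15 (8.89), Thy1 (8.50) and Ifi27l2a (8.12) stood relatively higher in endothelium alone. Thy1 averaged 1.34 ± 0.485 FPKM in stroma alone and 1315 ± 1096 in the first culture, with a wide spread. Ifi27l2a averaged 2297 ± 259.6 FPKM in endothelium alone and 61.3 ± 26.4 in the first culture. The opposite held for the Wnt antagonist Sfrp2 (-10.58), Abi3bp (-9.92), Lum (-9.45), Itm2a (-8.82), Fmod (-8.72) and Megf6 (-8.54). Itm2a averaged 10899.6 ± 249 FPKM in stroma alone and 189.6 ± 133 in the first culture. In that culture 3 of the 6 libraries carried Xist.

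Against the cells in vivo, Serpina1e (13.68), Serpina1d (12.01), Ptgds (11.71), Cytl1 (11.63), Thsd4 (11.61) and Col22a1 (11.43) stood relatively higher in endothelium alone. Serpina1d and Serpina1e are near copies of each other. Ptgds, a prostaglandin synthase, averaged 774 ± 31.5 FPKM in endothelium alone and was listed at 0 in endothelium in vivo. The other way were Bhlhe22 (-11.55), Stab2 (-11.30), Ubd (-11.09), Aebp1 (-10.82), Ptn (-10.79) and Acta2 (-10.65). Ubd was listed at 0 in every library alone, and Stab2 averaged 0.423 ± 0.195 FPKM in endothelium and 1.13 ± 0.132 in stroma alone. Their values come from the levels in endothelium in vivo, 2284 ± 930 FPKM for Ubd and 2017 ± 178 for Stab2. Aebp1 and Acta2 were higher in stroma alone, at 1908 ± 138 and 622 ± 73.6 FPKM, and higher in endothelium in vivo, at 223 ± 39.7 and 86.1 ± 12.2.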

How the results depend on the processing

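The number of genes called between the cell types alone moved by over 1.5 times only where a difference of at least 2-fold was also asked, to 5174 (2395 higher in endothelium, 2779 in stroma). The same demand left 1920 of the differences from the cultures with HSPC (814 and 1106, relatively higher in endothelium and in stroma alone), 1409 of those relatively higher in stroma against the first culture, and 6002 in vivo (3086 and 2916). With all 8 groups in the fit, 2276 differences from the cultures with HSPC passed (826 and 1450) and 6441 from the first culture (2911 and 3530). Leaving out 1 library gave 11271 to 11368 calls alone (5640 to 5776 and 5504 to 5668), 7274 to 8381 against HSPC (2666 to 3143 and 4518 to 5238), 2462 to 5779 against the first culture (1059 to 2580 and 1316 to 3504) and 10676 to 11123 in vivo (4643 to 5411 and 5586 to 6033). Against the first culture, leaving out its 3 libraries with Xist, an alternative chosen after seeing the data, left only 1 endothelial library. The count of that fit is therefore not given.

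Whether replicate numbers pair these samples is not given. Deviations correlated at -0.01 to 0.057 for the same number and -0.071 to 0.066 for others, and 2 of 6 libraries were closest to their own number. No pairing shows in these values, but with 3 libraries a group they cannot decide it. With the replicate block, 11654 genes were called alone, 7855 against HSPC, 3376 against the first culture and 11404 in vivo.

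Trimmed-mean scaling moved the median difference from the marrow over all genes by 0.12, and the in vivo values given are those before that shift. It moved the median difference from the cultures with HSPC by 0.07 and from the first culture by 0.05. The share of called differences toward endothelium alone went from 36.9% to 44.7% against HSPC, from 43.8% to 51.4% against the first culture and from 46.7% to 52.7% in vivo. The shares of all genes given beside the lists are those before this scaling. Quantile normalization turned the sign of the basement membrane median (0.20) and of B2m (0.19), Flt3l (0.13), Gas6 (-0.14), Hoxa6 (0.25), Mecom (-0.036) and Sparc (0.44), of which only Sparc was called in the reported fit. The integrin median, near 0, became 0.46 with the filter at 5 FPKM, 0.28 after quantile normalization, 0.33 with only the 6 libraries, and -0.0403 to 0.352 with 1 library left out. The guidance median fell to -0.003 without endothelium replicate 1. Signs also turned for genes that were not called. Hspa1a was -0.0036 with trimmed-mean scaling. With 1 library left out, Hspa1a ran from 0 to 0.042, Hoxa6 from -0.16 to 0.15, Prelp from -0.0596 to 0.031, Coro1a from -0.30 to 0.37, Thpo from -0.061 to 0.87 and Tmem100 from -0.077 to 0.11. Among named genes, 22 lost their call with all 8 groups in the fit. B2m was called with trimmed-mean scaling (adjusted p = 0.0399), only the 6 libraries (0.0226), weights by group (0.0176) and without endothelium or stroma replicate 1 (0.0496 and 0.0351). Of the list values, 51 member counts moved by over 1.5 times and 72 medians by 0.2 or more, most often with all 8 groups (25), the 2-fold demand (20), the pseudocount of 0.1 (19) and the filter at 5 FPKM (16). The osteoblast and cartilage medians were -5.00 and -5.05 with the pseudocount of 0.1.

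Depth is unknown, and 3 libraries a group bound the precision. Whether the libraries of a group are separate cultures is not given.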

Other observations

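Genes shared by blood stem cells and endothelium went both ways in these cultures. Of 13 tested members of the stem and progenitor list, 8 were higher in endothelium, 3 in stroma and 2 did not pass. Of all genes, 42% were higher in endothelium and 41.3% in stroma. The list median was 3.11, or 1.58 without the 7 members listed at 0 in a group. The adaptor Lmo2 and the exchange factor Fgd5 read 443, 406 and 389 and 302, 301 and 294 FPKM in the 3 endothelial libraries and were listed at 0 in all stromal ones, and Tal1, the master factor of blood formation, averaged 58.2 ± 0.585 FPKM against 0. Gata2 averaged 71.9 ± 0.658 FPKM against 4.60 ± 0.656. Mecom was not called, at 89.5 ± 4.64 and 86.6 ± 2.64 FPKM, and Meis1 and Hoxa9 were higher in stroma (4.78 ± 0.286 FPKM against 25.1 ± 0.351 and 5.96 ± 0.828 FPKM against 122 ± 5.59). Runx1 was also higher in stroma, at 23.7 ± 3.58 FPKM against 64.9 ± 0.454 (log2 difference -1.43 ± 0.10, adjusted p = 4.51e-08). The blood marker Ptprc was listed at 0 in all 6 libraries.

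Of the 16 heat shock and stress genes, 9 were higher in stroma, 5 in endothelium and 2 were not called, beside 41.3% and 42% of all genes. The metallothioneins Mt1 and Mt2, which bind zinc and copper, averaged 916 ± 48 and 620.5 ± 11.7 FPKM in stroma, with Mt1 listed at 0 and Mt2 at 1.10 ± 1.91 in endothelium. Also higher in stroma were Ddit3 at 53.1 ± 2.28 FPKM against 597 ± 34.6, Chac1 at 10.5 ± 1.04 FPKM against 206 ± 4.95 and the asparagine synthetase Asns at 85.7 ± 4.23 FPKM against 390.0 ± 28.2. Nqo1, a target of the antioxidant factor Nrf2, read 872, 875 and 942 FPKM in endothelium against 84.5, 94.5 and 106 (log2 difference 3.23 ± 0.08, adjusted p = 3.12e-12), and Gclm averaged 181 ± 14.4 FPKM against 93.7 ± 4.16. The inducible chaperones Hspa1a and Hsph1 were not called.

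MHC class I genes were higher in endothelium for 10 of 13 members, 5 of them by at least 2-fold, with H2-D1 at 1911 ± 119 FPKM against 426 ± 26.1 and the immunoproteasome subunit Psmb8 at 50.5 ± 2.16 FPKM against 10.9 ± 1.15. Class I genes are near copies of each other and could share reads. Tapbp was higher in stroma (310.2 ± 5.20 FPKM against 535 ± 18.6). Of 31 genes around Akt and FoxO, 12 were higher in endothelium and 17 in stroma, beside 42% and 41.3% of all genes. Akt1 and Foxo1 (113 ± 3.52 FPKM against 37.9 ± 0.686) were higher in endothelium. Their relatives Akt2 (30.2 ± 1.92 FPKM against 172 ± 5.93) and Foxo3 were higher in stroma. The insulin receptor substrate Irs1 averaged 0.0700 ± 0.121 FPKM against 67.2 ± 1.24 (log2 difference -6.00 ± 0.10), and the lipid phosphatase Inpp5d, better known from blood cells, averaged 193 ± 5.76 FPKM in endothelium with stroma listed at 0.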
